A study of Mus musculus with 4 samples.

Results

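Rgs5-high cells are a minority of a myogenic progenitor culture, picked out by one transcript. They are the 10% of cells of the MPC library with the highest Rgs5 share of UMIs (unique molecular identifiers, which stand for single captured transcripts), and each carried at least 1 Rgs5 UMI. A barcode entered when it held 1000 or more UMIs and 500 or more genes, with a mitochondrial share no higher than 10%. The rule gave 990 members of 9895 kept MPC cells, out of 21301 kept cells in the series. They were set against the other 6321 kept MPC cells with at least 3 Pax7 UMIs, called other Pax7-positive cells, and 2584 further cells fell under 3 Pax7 UMIs. Rgs5 chose the members and Pax7 chose the cells they are set against, so the levels of these genes between the 2 sets describe the rule and are no finding.

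The study asked whether committed mouse myoblasts can be turned back into stem-like cells with small molecules, and measured single-cell RNA in 4 libraries of cells from Pax7-nGFP mice. MPCs came from myoblasts of a 16 week old male mouse, expanded for 2 passages in Myoblast medium with 10 ng/ml basic FGF and then kept for 5 passages in MPC medium with 5 μM Forskolin, 5 μM Repsox, 3 μM CHIR9901 and 10 ng/ml basic FGF. Myoblasts came from a 16 week old male mouse and were taken at passage 2 in Myoblast medium. ASC are GFP+ cells sorted from 17 tibialis anterior muscles of male and female mice of 18 to 24 weeks, 3 days after 10 uM cardiotoxin, and fiSC are GFP+ cells sorted from limb muscles of 3 male mice of 13 weeks. The labels describe a GFP sort for ASC and fiSC and none for the cultures, and each group is 1 library, so no difference here has a replicate check. Intervals are exact 95% intervals (Poisson for CPM, binomial for shares of cells) and cover counting error only.

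Rgs5 encodes a regulator of G-protein signalling, a protein that speeds GTP hydrolysis by G-protein alpha subunits and so shortens signals from their receptors. It is best known as a marker of pericytes and other mural cells, which wrap small vessels. Pax7 is the transcription factor that marks satellite cells, the stem cells of skeletal muscle. Cdkn2a encodes p16Ink4a, which holds back cyclin D kinases, and p19Arf, which stabilises p53. Counts of 3′ ends cannot tell the transcripts of these 2 proteins apart.

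The kept cells of the MPC library held 163385232 UMIs with a median of 13751 per cell, and the medians of the other libraries lay between 8831 and 22957.5. Between 3 and 18 barcodes were shared by any pair of libraries, at most 0.456% of the smaller one. Scrublet, a doublet caller, marked 0 cells of the MPC library at its automatic threshold, so doublets were not removed. Cells in the top of its score, at the share expected for this number of cells, made up 10.4% of Rgs5-high cells and 10.3% of other Pax7-positive cells. Median UMIs were 14580.5 in Rgs5-high cells and 13905 in other Pax7-positive cells, and median mitochondrial shares were 3.71% in Rgs5-high cells and 3.69% in other Pax7-positive cells.

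Rgs5 was sparse. Only 1160 kept MPC cells (11.7%) had a Rgs5 UMI, and the 990 members held 2618 of the 2807 Rgs5 UMIs. Of the members, 453 carried 1 Rgs5 UMI, 190 carried 2 and 347 carried 3 or more, with a maximum of 22. At the edge of the rule the lowest member shares were 41.8, 42.1 and 42.2 CPM (counts per 1000000 UMIs), and the highest shares just outside were 41.8, 41.7 and 41.5 CPM, so the edge falls inside a continuous range. Over the summed UMIs Rgs5 stood at 151.6 CPM in Rgs5-high cells and 1.67 CPM in other Pax7-positive cells. After each cell was thinned to 2000 UMIs, 30.1% of Rgs5-high cells and 0.143% of other Pax7-positive cells still had a Rgs5 UMI. In the non-member cells of the cluster led by Crabp1, a retinoic acid binding protein, and by fibroblast matrix genes, 5.26% had a Rgs5 UMI unthinned and 0.195% thinned, at a median of 19681 UMIs.

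The Rgs5-high cells were myogenic by their markers. At least 3 Pax7 UMIs were present in 915 of 990 members (92.4%), although the rule did not ask for Pax7 in members. Pax7 stood at 973 CPM (958 to 988) in Rgs5-high cells and 643 CPM in all other kept cells of the library, a log2 ratio of 0.59 (0.57 to 0.62). Most of that gap came with the cells of low Pax7: in other Pax7-positive cells, chosen on this gene, Pax7 was at 833 CPM. The nuclear GFP reporter EGFP was at 80.1 CPM in Rgs5-high cells and 73.4 CPM in other Pax7-positive cells. Myf5, an early myogenic factor, was at 67.3 CPM in Rgs5-high and 55.8 CPM in other Pax7-positive cells, and Met, the receptor of hepatocyte growth factor, at 41.6 CPM in Rgs5-high and 33.8 CPM in other Pax7-positive cells. Myod1, the commitment factor, was at 82.4 CPM in Rgs5-high cells and 85.6 CPM in other Pax7-positive cells, and Myog, the factor of differentiation, at 174 CPM in Rgs5-high and 186 CPM in other Pax7-positive cells. Msc, also on the progenitor list, went the other way, at 17.1 CPM in Rgs5-high and 24.0 CPM in other Pax7-positive cells. Its log2 ratio of -0.39 was the lowest of the list. Of 17 measured genes of the progenitor list 12 had a ratio above 0 and none passed the size rule given next. None of the 9 measured commitment genes passed it either.

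Differences across all genes were few. A gene counted as measured with at least 10 CPM in the higher of the 2 sets, and as higher or lower when the ratio of CPM + 5 was at least 2-fold. Of 9037 measured genes 33 were higher in Rgs5-high cells (0.365%) and 3 were lower (0.0332%). Moving the edge of the rule, the pseudocount or the cells compared changed the number of higher genes to between 10 and 68 and of lower genes to between 0 and 131. The median log2 ratio of all measured genes was -0.01.

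Cdkn2a had the highest ratio of the 9037 measured genes, among which Rgs5 is not counted. It stood at 102 CPM (97.5 to 107) in Rgs5-high cells, against 24.5 CPM (23.6 to 25.4) in other Pax7-positive cells, 4.18-fold (3.93 to 4.44) without a pseudocount and 1.86 on the log2 scale with it (1.78 to 1.95). A Cdkn2a UMI was found in 54.1% of Rgs5-high cells and 15.6% of other Pax7-positive cells, and after thinning in 19.9% of Rgs5-high cells and 4.12% of other Pax7-positive cells. In non-member cells of the Crabp1-led cluster 7.41% had a Cdkn2a UMI unthinned and 0.975% thinned. Of the 990 Rgs5-high cells, which the rule did not choose on Pax7, 520 (52.5%, 49.4 to 55.7) had a Cdkn2a UMI together with at least 3 Pax7 UMIs.

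Cdkn2b, the neighbour of Cdkn2a that encodes p15Ink4b, had a similar fold at a much lower level. It was at 7.53 CPM (6.29 to 8.94) in Rgs5-high cells and 1.71 CPM (1.47 to 1.97) in other Pax7-positive cells, 4.41-fold (3.50 to 5.54) without a pseudocount, and was not counted as measured because it lay under the 10 CPM minimum. A Cdkn2b UMI was found in 9.60% of Rgs5-high cells and 2.40% of other Pax7-positive cells. The other kinase inhibitors differed less. Cdkn1a, which encodes p21 and is a p53 target, was at 289 CPM in Rgs5-high and 221 CPM in other Pax7-positive cells, a log2 ratio of 0.38. Cdkn1c, an imprinted gene that encodes p57, went the other way, with 1124 CPM in Rgs5-high cells and 1816 CPM in other Pax7-positive cells, a log2 ratio of -0.69. Cdkn2c, Cdkn2d and Cdkn1b had log2 ratios of -0.12, -0.03 and -0.01. Of the 6 measured genes of this list only Cdkn2a passed the size rule.

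Over all members, genes that respond to p53 were mostly above 0 in log2 ratio but under 2-fold, and the named ones are split by cluster below. Of 14 measured p53 targets 13 had a ratio above 0, with a median of 0.48, beside 4317 of 9037 genes above 0 and a median of -0.01 over all measured genes. Trp53inp1, a p53-induced nuclear protein, was the one past the size rule, at 20.7 CPM in Rgs5-high cells and 6.48 CPM in other Pax7-positive cells. Zmat3, an RNA-binding p53 target, was at 53 CPM in Rgs5-high and 24.8 CPM in other Pax7-positive cells. Eda2r, a death-domain receptor, was at 37.1 CPM in Rgs5-high and 16.6 CPM in other Pax7-positive cells, and Ccng1, cyclin G1, at 67.0 CPM in Rgs5-high and 36.4 CPM in other Pax7-positive cells. Trp53 itself, at 86.4 CPM in Rgs5-high and 91.8 CPM in other Pax7-positive cells, was near equal in the 2 sets.

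Cell cycle genes were near equal in level. In the G2/M list 2 of 20 genes had a ratio above 0, but the median was only -0.07 and the lowest -0.25, for the mitotic kinase gene Plk1 at 53.2 CPM in Rgs5-high cells and 64.1 CPM in other Pax7-positive cells. The median of 19 measured S phase genes was -0.02. After thinning, 2 or more G2/M UMIs remained in 69.4% of Rgs5-high cells (66.4 to 72.3) and 72.2% of other Pax7-positive cells (71.1 to 73.3), whose intervals overlap. Ccnd2, cyclin D2, was higher, at 177 CPM in Rgs5-high cells and 80.7 CPM in other Pax7-positive cells. It was not particular to members: the Crabp1-led cluster had 564 CPM and the cells under 3 Pax7 UMIs had 117 CPM. Ccnd1, cyclin D1, was at 219 CPM in Rgs5-high and 189.8 CPM in other Pax7-positive cells.

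Grik2 and Slit2 came next in ratio after Cdkn2a. Grik2, a kainate receptor subunit, was at 176 CPM (170.3 to 183) in Rgs5-high cells and 45.5 CPM (44.2 to 46.7) in other Pax7-positive cells, a log2 ratio of 1.85. Gria3, an AMPA receptor subunit, was at 95.4 CPM in Rgs5-high cells and 35.1 CPM in other Pax7-positive cells. Slit2, the secreted guidance ligand of Robo receptors, was at 115 CPM (110.2 to 120.4) in Rgs5-high cells and 32.6 CPM (31.6 to 33.7) in other Pax7-positive cells. These are not restricted to Rgs5-high cells: the Crabp1-led cluster had 318 CPM Grik2 and 274 CPM Slit2.

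The remaining named higher genes lay between 1.07 and 1.67 in log2 ratio. Ano3, of the anoctamin family, was at 86.4 CPM in Rgs5-high cells and 23.8 CPM in other Pax7-positive cells. The adhesion genes Pcdh9, a protocadherin, and Adgrl3, a latrophilin, were at 156 and 69.0 CPM in Rgs5-high cells, against 57.9 and 30.1 CPM in other Pax7-positive cells. Plxdc2 (177 CPM in Rgs5-high, 66.0 CPM in other Pax7-positive cells) and Cd200 (124 CPM in Rgs5-high, 54.0 CPM in other Pax7-positive cells) encode membrane proteins, CD200 being an inhibitory ligand of myeloid cells. The carbonic anhydrase genes Car3 and Car2, both on chromosome 3, were at 333 and 110.2 CPM in Rgs5-high cells, against 145 and 46.6 CPM in other Pax7-positive cells. In cells under 3 Pax7 UMIs Car3 was at 395 CPM and Adgrl3 at 67.4 CPM, near or above the members, while Car2 was at 40.6 CPM. Tceal3, on the X chromosome, was at 248 CPM in Rgs5-high and 109.8 CPM in other Pax7-positive cells, and Dglucy, D-glutamate cyclase, at 58.2 CPM in Rgs5-high and 20.9 CPM in other Pax7-positive cells. Among higher genes under 50 CPM, named after their values were seen, were Mdk, the growth factor midkine (28.9 CPM in Rgs5-high, 6.61 CPM in other Pax7-positive cells), and Agtr2, an angiotensin II receptor (22.9 CPM in Rgs5-high, 3.96 CPM in other Pax7-positive cells).

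Fry, the mouse form of Drosophila furry, was the one named gene lower by the size rule, at 63.5 CPM (59.8 to 67.4) in Rgs5-high cells and 133 CPM (131 to 135) in other Pax7-positive cells, a log2 ratio of -1.01. A Fry UMI was found in 30.9% of Rgs5-high cells and 60.9% of other Pax7-positive cells. The other lower genes were Wwc1, at 3.99 CPM in Rgs5-high and 13.3 CPM in other Pax7-positive cells, and Gm16867, at 16.8 CPM in Rgs5-high and 39.2 CPM in other Pax7-positive cells, both named after their values were seen.

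**Figure D1:**
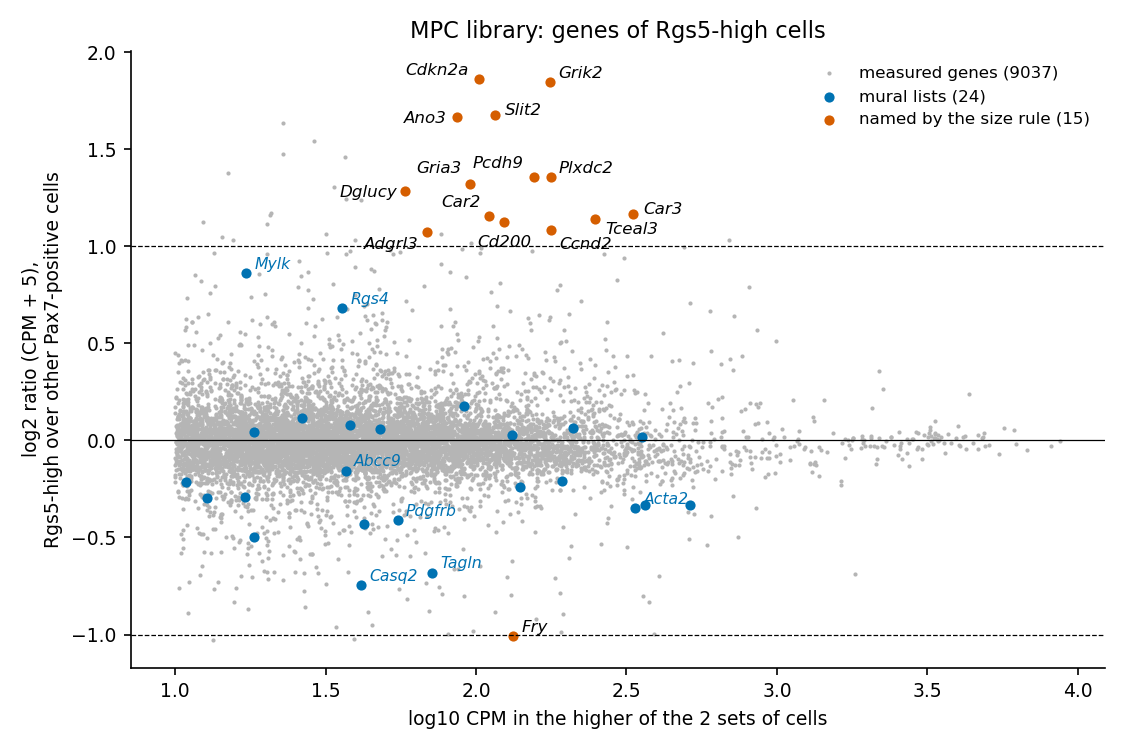
Each point is 1 of 9037 measured genes of the MPC library; the x axis is log10 CPM in the higher of the 2 sets of cells and the y axis the log2 ratio of CPM + 5, Rgs5-high over other Pax7-positive cells. Orange points are named genes past the size rule (dashed lines, 2-fold), led by Cdkn2a at 1.86 and Grik2 at 1.85, and blue points are the 24 measured mural genes, none of which lies past a dashed line.

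Mural genes besides Rgs5 showed no common rise in the Rgs5-high cells. Of 39 genes on the mural lists 24 were measured, 10 had a ratio above 0 and the median was -0.21. Over all measured genes 4317 of 9037 were above 0 and the median was -0.01. None of the 24 passed the size rule, beside 0.365% higher and 0.0332% lower of all measured genes. At those shares a count of 0 among 24 genes says little. Of the 10 defining mural genes 4 were measured, and the rest lay under the 10 CPM minimum and could not pass. The sum of all 10 was 113.8 CPM in Rgs5-high cells and 133 CPM in other Pax7-positive cells. Pdgfrb, the receptor by which pericytes are recruited, was at 40.1 CPM (37.1 to 43.2) in Rgs5-high cells and 54.9 CPM (53.5 to 56.3) in other Pax7-positive cells. The channel genes of pericytes, Kcnj8 and Abcc9, were at 8.74 and 32.6 CPM in Rgs5-high cells, against 10.9 and 36.8 CPM in other Pax7-positive cells. Cspg4, which encodes NG2, was at 1.74 CPM in Rgs5-high and 2.82 CPM in other Pax7-positive cells, and Cox4i2, a subunit of cytochrome c oxidase, at 26.4 CPM in Rgs5-high and 24.0 CPM in other Pax7-positive cells. Vtn and Foxs1 were at 1.16 and 2.55 CPM in Rgs5-high cells, against 1.73 and 1.63 CPM in other Pax7-positive cells. Higd1b had 9 UMIs in all Rgs5-high cells (0.521 CPM), found in 5 cells, and 11 UMIs in other Pax7-positive cells (0.0994 CPM). That is 5.24-fold without a pseudocount (1.92 to 13.9), on few UMIs and far under the 10 CPM minimum. Gja4 had 1 UMI in Rgs5-high cells and 0 in other Pax7-positive cells. Steap4 had 0 in Rgs5-high cells, which allows up to 0.214 CPM, and 2 in other Pax7-positive cells.

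Contractile genes of smooth muscle lay on both sides of 0. Acta2, smooth muscle actin, was at 264 CPM in Rgs5-high cells and 338 CPM in other Pax7-positive cells, and Tagln, transgelin, at 42.6 CPM in Rgs5-high and 71.3 CPM in other Pax7-positive cells. Mylk, myosin light chain kinase, had the highest ratio of the mural lists, 0.86 on the log2 scale, at 17.2 CPM (15.3 to 19.3) in Rgs5-high cells and 7.22 CPM (6.73 to 7.74) in other Pax7-positive cells. It passed the size rule with a pseudocount of 1, in members with at least 3 Rgs5 UMIs and in cells with at most 5% mitochondrial UMIs. Casq2, calsequestrin of heart and slow muscle, had the lowest ratio, -0.74, at 22.8 CPM in Rgs5-high and 41.5 CPM in other Pax7-positive cells. Myh11, the smooth muscle myosin, was at 4.52 CPM in Rgs5-high and 2.61 CPM in other Pax7-positive cells. Notch3, a receptor of mural and satellite cells, was at 211 CPM in Rgs5-high and 201 CPM in other Pax7-positive cells.

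The sorted libraries held a few cells with far more Rgs5 UMIs, in which mural genes were found together. Cells with 100 or more Rgs5 UMIs numbered 4 in fiSC and 2 in ASC, where the most in a cell were 401 in fiSC and 360 in ASC, while no MPC cell had more than 22. The 4 fiSC cells each carried 4 to 9 of the 10 defining mural genes and the 2 ASC cells 6 to 10, while 465 of 990 Rgs5-high MPC cells carried 0, 126 carried 3 or more and the most was 7. Among other Pax7-positive MPC cells 2163 of 6321 carried 0, 866 carried 3 or more and the most was 8. In the 4 fiSC cells Rgs5 was at 10033 CPM, Gja4 at 252 CPM, Higd1b at 135 CPM and Myh11 at 1209 CPM, with 5 Pax7 UMIs. In the 2 ASC cells Rgs5 was at 9356 CPM, Higd1b at 497 CPM and Myh11 at 1629 CPM, with 0 Pax7 UMIs. These cells were chosen for their Rgs5 count, so the values are a description of 6 cells.

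**Figure D2:**
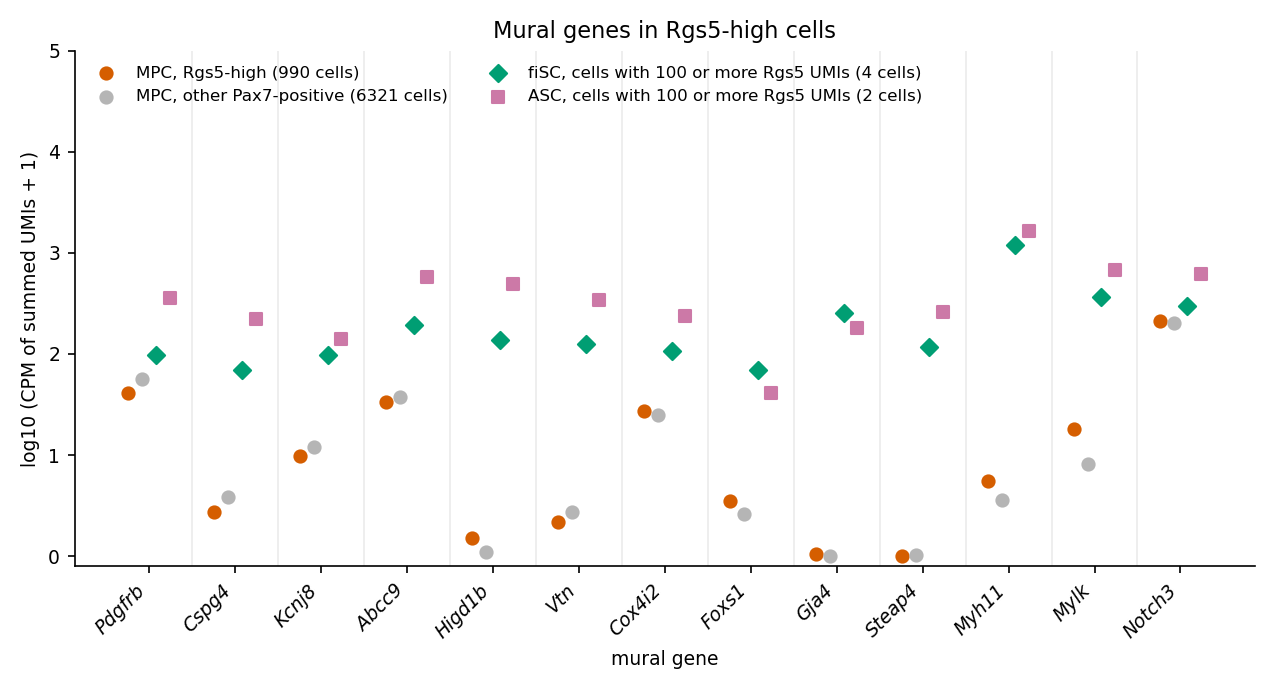
The y axis is log10 of CPM + 1 over summed UMIs and the x axis lists the 10 defining mural genes followed by Myh11, Mylk and Notch3. Orange and grey circles, Rgs5-high and other Pax7-positive MPC cells, lie close together for each gene. The 4 fiSC and 2 ASC cells with 100 or more Rgs5 UMIs lie above them for all 13 genes shown. Myh11, Mylk and Notch3 were picked from the other mural genes, some of which went the other way. Des, not shown, was at 116 CPM in the fiSC and 159 CPM in the ASC cells, against 405 CPM in Rgs5-high MPC cells. Heyl was at 19.4 CPM in the fiSC cells and 91.0 CPM in Rgs5-high MPC cells.

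Of 7 measured RGS genes besides Rgs5 none passed the size rule, 6 had a ratio above 0 and the median was 0.24, beside -0.01 over all measured genes. Rgs2, which acts on Gq, came nearest at 0.98, with 38.1 CPM in Rgs5-high cells and 16.9 CPM in other Pax7-positive cells. Rgs4 was next at 0.68, with 35.9 CPM in Rgs5-high cells and 20.5 CPM in other Pax7-positive cells, and Rgs16 was at 31.2 CPM in Rgs5-high and 28.8 CPM in other Pax7-positive cells. Of 14 measured G-protein genes none passed, and Gnas, the stimulatory alpha subunit that activates adenylyl cyclase, was at 2176 CPM in Rgs5-high and 1695 CPM in other Pax7-positive cells. Of 19 measured genes of the cAMP pathway, on which Forskolin acts through adenylyl cyclase, none passed. The phosphodiesterase gene Pde7b fell just short, with a log2 ratio of 0.999, at 492 CPM (481 to 502) in Rgs5-high cells and 243 CPM (241 to 246) in other Pax7-positive cells, while Pde10a was at 721 CPM in Rgs5-high and 459.6 CPM in other Pax7-positive cells.

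Over all members, sarcomere genes were lower as a list without passing the size rule, and some are split by cluster below. All 21 measured genes of the list had a ratio below 0, with a median of -0.70 and a range of -1.0 to -0.21. Acta1, skeletal actin, was at 193 CPM in Rgs5-high cells and 392 CPM in other Pax7-positive cells, and Myh8, neonatal myosin, at 37.9 CPM in Rgs5-high and 80.6 CPM in other Pax7-positive cells. The share of cells with a UMI differed little: 75.6% of Rgs5-high and 75.8% of other Pax7-positive cells had an Acta1 UMI, and 19.7% of Rgs5-high and 19.5% of other Pax7-positive cells had a Myh8 UMI.

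Of the remaining lists none had a member past the size rule. Matrix genes had a median of -0.18 over 29 measured, with 6 above 0, and Col4a2, a basement membrane collagen, was at 215 CPM in Rgs5-high cells and 317 CPM in other Pax7-positive cells. In the quiescence list, 15 measured with a median of -0.11, the imprinted Dlk1, a Notch-like ligand, was at 81.1 CPM in Rgs5-high cells and 158 CPM in other Pax7-positive cells. Imprinted genes had a median of -0.14 over 10 measured, and Grb10, an adaptor that damps growth factor signalling, was at 523 CPM in Rgs5-high and 741 CPM in other Pax7-positive cells. Medians were 0.05 for 13 Notch genes, 0.14 for 7 Wnt genes, -0.15 for 11 TGF-β targets, 0.04 for 19 hypoxia genes, 0.04 for 14 glycolysis genes, -0.14 for 15 early response genes and -0.17 for 6 retinoid genes. Of markers of other cell types, 0 of 12 endothelial and 0 of 12 macrophage genes were measured, 9 of 16 fibroblast genes were measured with a median of -0.07, and 1 each of the tenocyte, Schwann and adipocyte lists was measured. The endothelial list summed to 31.4 CPM in Rgs5-high and 26.9 CPM in other Pax7-positive cells, and the macrophage list to 9.26 CPM in Rgs5-high and 10.4 CPM in other Pax7-positive cells.

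Inside the members Cdkn2a and Slit2 rose and Fry fell from the low to the top Rgs5 share, while Pdgfrb kept no such order. The split uses the same value as the rule, so it describes the members and is no support of it. Split by Rgs5 share into 3 sets of 330 cells each, members had median shares of 62.4 CPM in the low set, 107 CPM in the middle set and 299 CPM in the top set. The median was 1 Rgs5 UMI in both the low and the middle set and 4 in the top set, so the low and middle sets differ largely in depth. Cdkn2a was at 23.9 CPM in Pax7-positive cells with no Rgs5 UMI, 32.4 CPM in the 170 Rgs5-positive cells outside the rule, and 66.8, 92.8 and 167 CPM in the low, middle and top sets of members. The intervals of these 5 Cdkn2a values did not overlap. Slit2 was at 30.9, 54.4, 58.0, 104.6 and 214.5 CPM from no Rgs5 UMI to the top set, where the values of the cells outside the rule and of the low set differ by less than their intervals. Fry had 132 CPM without Rgs5, 139 CPM in Rgs5-positive cells outside the rule, and 81.5, 75 and 23.0 CPM in the low, middle and top sets of members. The mural gene Pdgfrb was at 54.6, 60.3, 40.9, 45.5 and 32.6 CPM over the 5 sets from low to high Rgs5. Median UMIs of the 5 sets in that order were 13722, 37458, 17688, 12301.5 and 12335, since cells with 1 Rgs5 UMI have low shares when they are deep, and the part of depth in these levels was not tested.

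**Figure D3:**
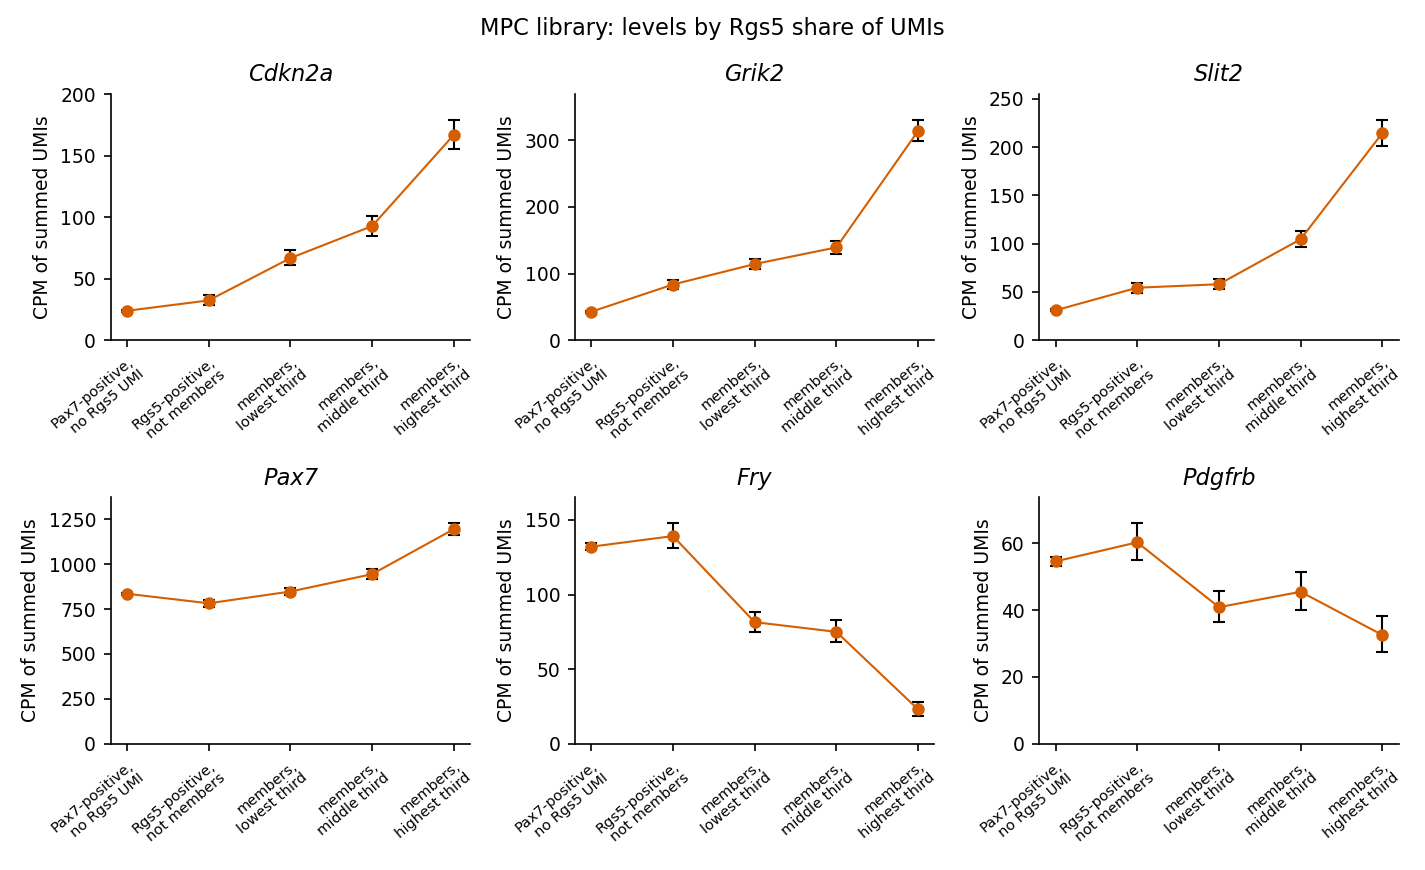
CPM of summed UMIs (y axis, with exact 95% Poisson intervals) of 6 genes in MPC cells ordered by Rgs5 share (x axis), from Pax7-positive cells with no Rgs5 UMI to the top 330 members. Cdkn2a reached 167 CPM in the top set while Fry stood at 23.0 CPM and Pdgfrb stood at 32.6 CPM.

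Clustering of the MPC library showed where members lie. It used 2000 variable genes without Rgs5, Pax7, Cdkn2a, EGFP, cell cycle genes and all genes of chromosome 6, and gave 11 clusters. Cluster 4, of 1039 cells (10.5% of the library), held 461 of 990 members (46.6%), and 44.4% of its cells were members (41.3 to 47.5). It held 553 of the other Pax7-positive cells, 8.75% of them. Cluster 6, led by the neuropeptide gene Gal and by Tcerg1l, had the next highest share of members, 18.3% (15.3 to 21.7), and every other cluster had at most 7.40%. The genes that led cluster 4 were Cdkn2a, Rgs5, Ano3, Mdk, Dglucy, Gria3, Psrc1, Pcdh9, Etl4 and Cd200.

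In cluster 4 Cdkn2a was high both in members and in other Pax7-positive cells. No Rgs5 UMI was found in 568 of its 1039 cells (54.7%), which does not show that these cells lacked the transcript. Inside the cluster Cdkn2a was at 209 CPM (198 to 219.9) in the 461 members and 171 CPM (162 to 181) in the 553 other Pax7-positive cells, where Rgs5 was at 219 CPM in members and 1.38 CPM in other Pax7-positive cells. Outside the cluster Cdkn2a was at 35.4 CPM in the 529 members and 13.1 CPM in the 5768 other Pax7-positive cells. The difference of Cdkn2a between clusters was thus larger than that between members and other cells of the same cluster. Zmat3 was at 84.1 CPM in members and 82.6 CPM in other Pax7-positive cells inside, and at 33.4 and 20.3 CPM outside. In the same order Eda2r was at 67.3 and 71.2 CPM inside and 18.1 and 12.4 CPM outside. Ccng1 had 104.8 and 103 CPM inside and 43.2 and 31.2 CPM outside. Trp53inp1 had 38.1 and 29.8 CPM inside and 9.81 and 4.67 CPM outside. Pax7 was at 1273 CPM in members and 1216 CPM in other Pax7-positive cells inside, and at 784 CPM in members and 803 CPM in other Pax7-positive cells outside. Fry was at 6.90 CPM in members and 29.7 CPM in other Pax7-positive cells inside, and at 99.1 CPM in members and 141 CPM in other Pax7-positive cells outside. The sarcomere genes Acta1, Myh8, Myl4 and Tnnc1 had log2 ratios of -0.12, 0.54, 0.19 and -0.04 inside, members over other Pax7-positive cells. Outside, their ratios were -0.74, -0.72, -0.75 and -0.81. Slit2 was at 219 CPM in members and 136 CPM in other Pax7-positive cells inside, so the 2 sets were not equal there. The measured defining mural genes follow, members first and other Pax7-positive cells second. Pdgfrb was at 10.9 and 11.0 CPM inside and 58.4 and 58.3 CPM outside. Kcnj8 was at 1.80 and 2.77 CPM inside and 13.1 and 11.5 CPM outside. Abcc9 had 5.40 and 5.92 CPM inside and 49.7 and 39.2 CPM outside. Cox4i2 had 12.1 and 8.18 CPM inside and 35.4 and 25.3 CPM outside. Outside, Mylk was higher in members (14.1 and 7.04 CPM) and Acta2 lower (300 and 347 CPM).

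Within cluster 4 few genes were left past the size rule. Members over other Pax7-positive cells gave 4 higher (0.0454%) and 7 lower (0.0795%) of 8810 measured genes, the higher ones being Gal, Kcnma1, Fcsk and Grik2. Grik2 was at 288 CPM in members and 134 CPM in other Pax7-positive cells inside, and at 107 CPM in members and 38.6 CPM in other Pax7-positive cells outside, so it kept its direction in both places. Outside cluster 4, 12 genes were higher (0.132%) and 1 lower (0.011%) of 9082, led by Tcerg1l, Scg2, Grik2 and Spock1, with Cdkn2a among them. Between other Pax7-positive cells inside and outside the cluster, 125 genes were higher (1.37%) and 360 lower (3.94%) of 9141. Cdkn2a, Ano3 and Dach1 led the higher ones. The Rgs5 rule had taken the members out of both sides of this contrast. These cells were clustered on their expression, so this contrast describes the cluster and is no test of it.

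**Figure D4:**
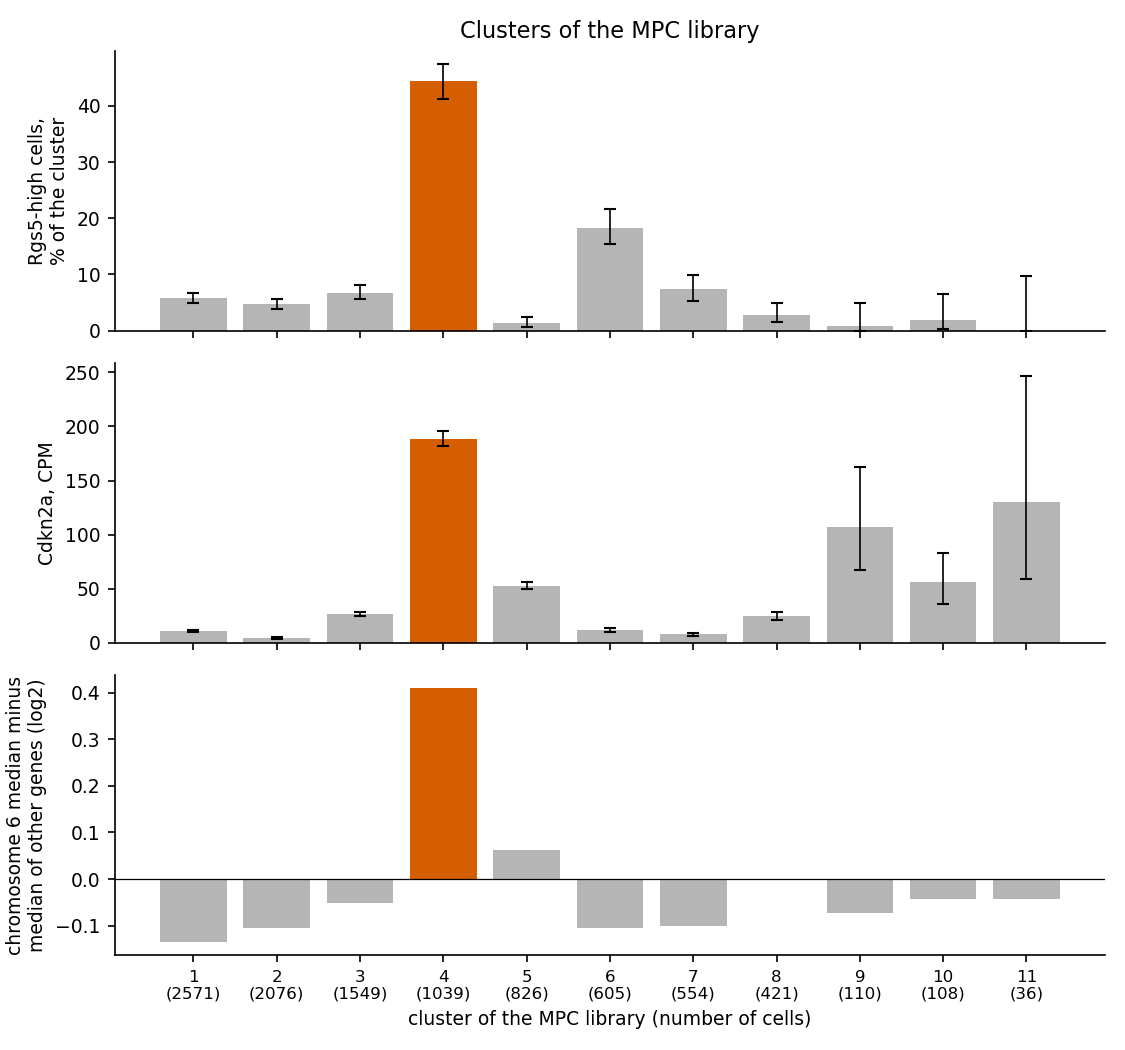
The 11 clusters of the MPC library (x axis, number of cells in brackets), with the share of cells that are Rgs5-high (top, %, exact binomial intervals), Cdkn2a CPM (middle, exact Poisson intervals) and the median log2 ratio of chromosome 6 genes over all other cells minus that of genes elsewhere (bottom). Cluster 4 (orange) had 44.4% members, 189 CPM Cdkn2a and a chromosome 6 difference of 0.41, while the other clusters lay between -0.14 and 0.06.

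Genes of chromosome 6 stood apart as a block. Of 465 measured chromosome 6 genes 413 (88.8%) had a log2 ratio above 0 in Rgs5-high over other Pax7-positive cells, with a median of 0.19. On the other chromosomes 39.9 to 52.3% of genes were above 0 and the medians lay between -0.02 and 0.01. Chromosomes were taken from the GENCODE vM21 and RefSeq annotations of GRCm38 by gene identifier or symbol, for 99.9% of measured genes. The block was made of small ratios: only 2 of the 33 higher genes, Ccnd2 and Exoc4, lie on chromosome 6, and neither Cdkn2a on chromosome 4 nor Rgs5 does. All 10 runs of about 46 measured genes along the chromosome had a positive median, between 0.13 and 0.38, the highest in the 3rd run.

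The share of a cell's UMIs on chromosome 6 fell into 2 ranges. Its median was 5.26% in Rgs5-high cells (quartiles 4.15 and 6.16) and 4.17% in other Pax7-positive cells (3.97 and 4.42). Above 5.5%, a value chosen after the distribution was seen, lay 458 of 981 Rgs5-high cells (46.7%) and 556 of 6235 other Pax7-positive cells (8.92%) with at least 5000 UMIs. Among members and other Pax7-positive cells the high range lay mainly in cluster 4, although chromosome 6 genes had no part in the clustering: 407 of 458 members and 417 of 545 other Pax7-positive cells inside it were above 5.5%, against 51 of 523 members and 139 of 5690 other Pax7-positive cells outside. The cells under 3 Pax7 UMIs were placed otherwise, with 11 of 17 above 5.5% inside cluster 4 and 286 of 2116 outside. The median shares were 6.15% in members and 6.03% in other Pax7-positive cells inside, and 4.2% in members and 4.14% in other Pax7-positive cells outside. In summed UMIs the share of members inside was 1.42 times that of other Pax7-positive cells outside, while for the other chromosomes this ratio lay between 0.953 and 1.04. Without Gapdh, the most abundant gene named on it, the medians were 4.99% in Rgs5-high cells and 3.99% in other Pax7-positive cells.

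Outside cluster 4 Cdkn2a was higher in cells above 5.5%, while inside the cluster it was high on both sides of that value. Among members inside, Cdkn2a was at 212 CPM (200 to 224) above 5.5% and 187 CPM (158 to 220) in the others. These intervals overlap. Among other Pax7-positive cells inside, it was at 185 CPM (174 to 196) above 5.5% and 134 CPM (119 to 151) in the others. In members outside cluster 4, Cdkn2a was at 113 CPM (91.7 to 137) in the 51 cells above 5.5% and 28.1 CPM (24.9 to 31.7) in the others. In other Pax7-positive cells outside, it was at 119.6 CPM (107.4 to 133) above 5.5% and 9.96 CPM (9.35 to 10.6) in the others, and in the cells under 3 Pax7 UMIs, over all clusters, at 116 CPM above 5.5% and 15.7 CPM in the others. For Slit2 the direction differed between places among other Pax7-positive cells. In members Slit2 was higher above 5.5% inside cluster 4, while outside the intervals overlap. Inside cluster 4 it was at 225 CPM (213 to 237) above 5.5% and 176 CPM (148 to 208) in the others among members, and at 154 CPM (144 to 165) above 5.5% and 85.3 CPM (73.3 to 98.7) in the others among other Pax7-positive cells. Outside cluster 4 Slit2 was at 40.6 CPM (28.4 to 56.2) above 5.5% and 51.2 CPM (46.8 to 55.9) in the others among members, and at 16.0 CPM (11.8 to 21.3) above 5.5% and 25 CPM (24 to 26) in the others among other Pax7-positive cells. DNA was not measured, so the number of copies of chromosome 6 in these cells is not known, and the part of the chromosome 6 shift in the levels above was not tested.

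In the parent type of culture the same rule gave 241 Rgs5-high and 1713 other Pax7-positive myoblasts, in a separate library. At least 3 Pax7 UMIs were present in 225 of the 241 (93.4%). Rgs5 was at 217 CPM in Rgs5-high and 4.89 CPM in other Pax7-positive myoblasts, which chose the cells. Cdkn2a was at 337 CPM (322 to 352) in Rgs5-high and 230.1 CPM (226 to 235) in other Pax7-positive myoblasts, a log2 ratio of 0.54, beside 1.86 in MPC cells; the difference between these ratios was not tested. The defining mural genes summed to 8.59 CPM in Rgs5-high and 7.36 CPM in other Pax7-positive myoblasts, and none was measured.

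Of 8911 measured myoblast genes 27 were higher (0.303%) and 33 lower (0.37%) in Rgs5-high cells. Genes measured in both cultures numbered 8261, of which 25 were higher in MPCs and 15 in myoblasts, and 5 were higher in both, which is 20.0% of the MPC list and 33.3% of the myoblast list. They were Slit2, Pcdh9, Gal, Dach1, a nuclear cofactor, and Gpx3, a secreted glutathione peroxidase. Slit2 was at 34.2 CPM in Rgs5-high and 8.07 CPM in other Pax7-positive myoblasts, and Pcdh9 at 281 CPM in Rgs5-high and 115 CPM in other Pax7-positive myoblasts. Pde7b, just short of the size rule in MPCs, was at 205 CPM in Rgs5-high and 74.3 CPM in other Pax7-positive myoblasts. Grik2, second in MPCs, was at 13.6 CPM in Rgs5-high and 10.1 CPM in other Pax7-positive myoblasts. Car3 went the other way, at 49.3 CPM in Rgs5-high and 142 CPM in other Pax7-positive myoblasts.

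Other features of the MPC cells had other values in myoblasts. Chromosome 6 genes had a median log2 ratio of 0.03, within the range of the other chromosomes (-0.02 to 0.06), and 1 of 232 Rgs5-high and 10 of 1686 other Pax7-positive myoblasts were above 5.5%. In all kept cells with at least 5000 UMIs the share above 5.5% was 14.0% in MPC, 0.812% in myoblast, 0.0352% in ASC and 1.01% in fiSC. Sarcomere genes were past the size rule in myoblasts, with 12 of 20 measured lower and a median of -1.20, and Myl4, a myosin light chain, was at 31.8 CPM in Rgs5-high and 212 CPM in other Pax7-positive myoblasts. G2/M genes had a median of -0.48, with 0 of 20 above 0. The differences between cultures rest on 1 library each and were not tested.

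**Figure D5:**
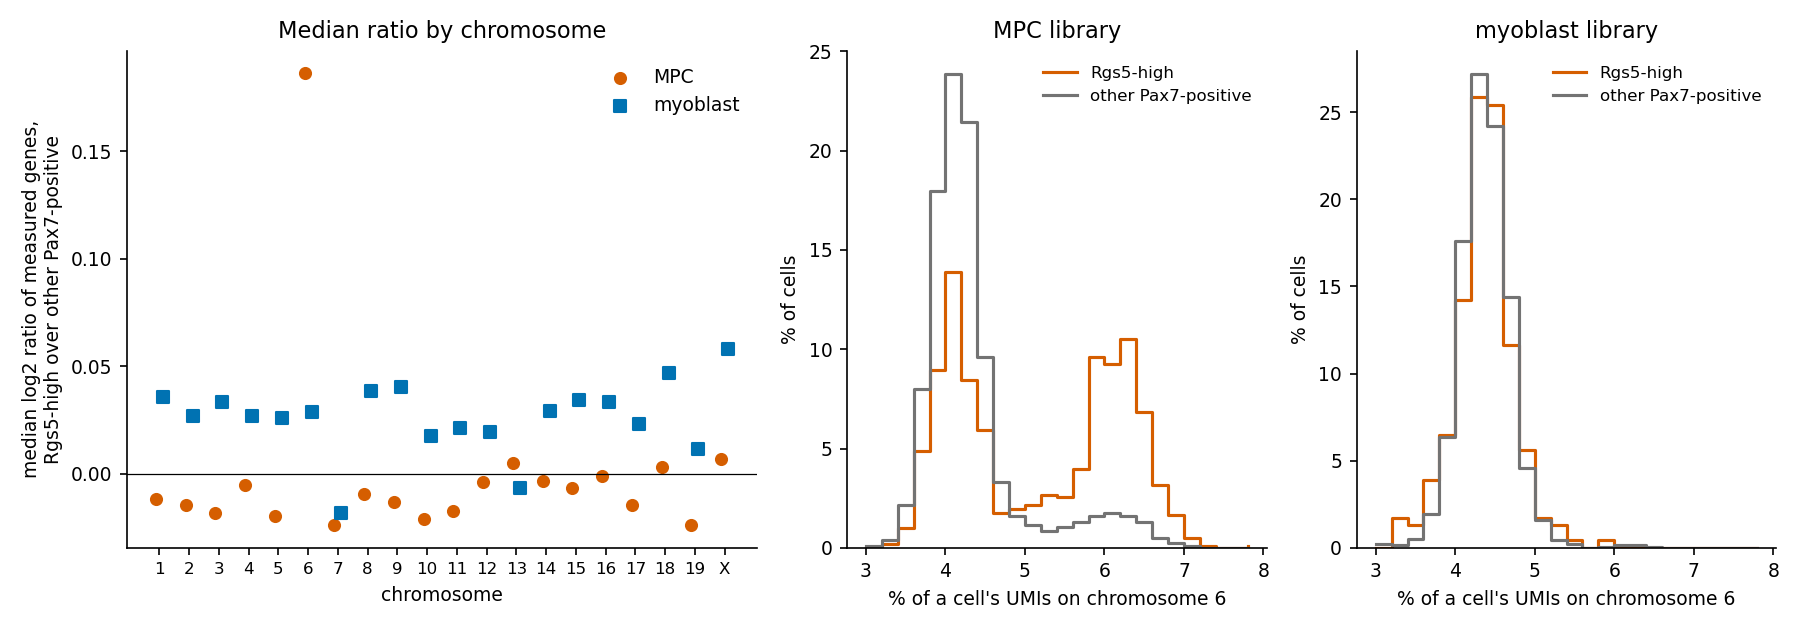
Left, median log2 ratio of measured genes, Rgs5-high over other Pax7-positive cells, for each chromosome (x axis) in the MPC (circles) and myoblast (squares) libraries. Middle and right, the distribution of the share of a cell's UMIs on chromosome 6 (x axis, %; y axis, % of cells) in cells with at least 5000 UMIs. Chromosome 6 stood at 0.19 in MPC and 0.03 in myoblasts, and 46.7% of Rgs5-high MPC cells lay above 5.5%.

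Across the series Rgs5 was at 17.2 CPM in MPC (16.6 to 17.8), 26.2 CPM in myoblast (24.8 to 27.5), 3.56 CPM in ASC (3.30 to 3.84) and 53.7 CPM in fiSC (50.6 to 56.9). The share of cells with a Rgs5 UMI had another order: 11.7% in MPC, 18.0% in myoblast, 1.39% in ASC and 2.89% in fiSC, and after thinning to 2000 UMIs 3.16% in MPC, 3.98% in myoblast, 0.217% in ASC and 0.818% in fiSC. In both sorted libraries most Rgs5 UMIs came from the cells with 100 or more named above: the 2 cells in ASC held 471 of 675 and the 4 in fiSC held 1037 of 1113. Without these cells Rgs5 was at 1.08 CPM in ASC (0.934 to 1.24) and 3.68 CPM in fiSC (2.90 to 4.61). The rule applied to ASC and fiSC took every cell with a Rgs5 UMI, 94 cells in ASC and 65 in fiSC, of which 57.4% in ASC and 73.8% in fiSC had at least 3 Pax7 UMIs, beside 92.4% of the MPC members.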

How the data were processed

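The authors deposited whole-number UMI counts of 25828 features for each barcode, which had not been normalized. Per the labels' protocols the libraries were 10x Chromium 3′ droplet libraries, and the submitters' processing notes name STAR 2.7.10b and the GRCm39 build. UMI collapsing, cell calling, the gene annotation and any doublet removal are not given in the sources used here. Counts were summed over the cells of each set and scaled to CPM in Python 3.11.15 (numpy 2.4.6, scipy 1.17.1, pandas 2.3.3), and log2 ratios used a pseudocount of 5 CPM. With 1 library a group no test was made, and exact 95% intervals cover counting error only. For shares of cells, cells were thinned to 2000 UMIs, leaving out 3 Rgs5-high and 8 other Pax7-positive cells below that. Clusters came from scanpy 1.11.5 (Leiden, 30 components, 15 neighbours, resolution 0.5) and doublet scores from Scrublet. The files carry no coordinates, and the annotations at hand are of GRCm38, so they gave chromosomes only, for 25694 of 25804 genes. The size rule was checked on simulated counts with known folds.

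Named genes were Rgs5, Pax7, Cdkn2a, EGFP, the genes of the mural, RGS and kinase inhibitor lists, up to 15 with the highest and up to 15 with the lowest ratios past the size rule among genes of at least 50 CPM in the higher set and a UMI in at least 10% of its cells (symbols starting with Gm and a digit or ending in Rik left out), and up to 4 genes of largest absolute ratio from each other list. The cells, lists and rules were chosen with earlier results of these data known, so nothing here is independent support of them.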

Additional observations from a re-analysis of the deposited data

How the results depend on the processing

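No paired analysis was possible because each group is 1 library and the labels give no replicate numbers that pair samples. The 16 named genes past the size rule kept their sign under each alternative run, in 240 of 240 values, and stayed at least 2-fold in 212. Higher genes, 33 as reported, numbered 68 with the rule at 5% of cells, 18 at 20% (which takes each of the 1160 cells with a Rgs5 UMI), 62 with at least 3 Rgs5 UMIs, 51 with means of per-cell shares, 57 with a pseudocount of 1, 10 with a pseudocount of 20 and 65 in cells under 2 G2/M UMIs. Lower genes, 3 as reported, numbered 43 at 5%, 0 at 20%, 7 with at least 3 Rgs5 UMIs, 7 with at least 3 Pax7 UMIs in members, 7 without Myog UMIs, 39 against cells with at least 1 Pax7 UMI, 131 against all other kept cells, 1 at a mitochondrial limit of 5%, 6 without the cells of highest doublet score, 13 with per-cell means, 18 with a pseudocount of 1, 0 with a pseudocount of 20 and 36 in cells under 2 G2/M UMIs. The Cdkn2a log2 ratio, 1.86 as reported, was 2.18 at 5%, 1.56 at 20%, 2.05 with at least 3 Rgs5 UMIs, 2.06 without Myog UMIs, 2.01 at the mitochondrial limit, 2.01 without the highest doublet scores, 2.02 with per-cell means, 2.02 with a pseudocount of 1, 1.46 with a pseudocount of 20 and 2.03 in cells under 2 G2/M UMIs. Mural genes past the size rule, 0 as reported, numbered 1 with at least 3 Rgs5 UMIs, at the mitochondrial limit and with a pseudocount of 1 (Mylk, higher), 1 against cells with at least 1 Pax7 UMI and in cells under 2 G2/M UMIs (Casq2, lower) and 2 against all other kept cells (Casq2 and Tpm2, lower). The Pax7 log2 ratio over all other kept cells, 0.59 as reported, was 0.79 at 5%, 0.52 at 20%, 0.75 with at least 3 Rgs5 UMIs, 0.29 with at least 3 Pax7 UMIs on both sides, 0.33 without Myog UMIs, 0.45 at the mitochondrial limit, 0.64 without the highest doublet scores, 0.62 with per-cell means, 1.17 in cells under 2 G2/M UMIs and 0.40 in the rest. The share of chromosome 6 genes above 0, 88.8% as reported and chosen as a result after seeing the data, was 85.1% at 5%, 84.6% against all other kept cells and 82.0% in cells under 2 G2/M UMIs. It was 49.0% with no minimum CPM, where genes without a UMI on either side have a ratio of 0 by construction. Clustering at other resolutions or with chromosome 6 genes, also chosen after seeing the data, put 45.3 to 48.1% of members in one cluster. The cause of these shifts was not tested. With 453 members resting on 1 Rgs5 UMI, cells that express Rgs5 but gave no UMI are counted among the others.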
